A study of Mus musculus with 16 samples.

Results

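Cells build DNA from deoxynucleotides that come either from new synthesis or from salvage of nucleosides taken up from outside. The 10 genes described here sit on both routes: Slc29a1 encodes a nucleoside transporter, Dck and Tk1 the salvage kinases for deoxycytidine and thymidine, Nt5c2 a nucleotidase that removes phosphate again, Rrm1 and Rrm2 the subunits of ribonucleotide reductase, and Dctd, Dut, Cmpk1 and Dtymk enzymes that interconvert or phosphorylate pyrimidine nucleotides. Cytarabine, a deoxycytidine analogue used against leukaemia, enters through the transporter and is inert until Dck phosphorylates it. Dctd, the deaminase of dCMP, links the cytidine and thymidine branches and can also act on the monophosphate of cytarabine. The genes were chosen by name, as all rows of the deposited expression table whose gene name is one of these, and all 10 were found among 13474 genes.

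RNA came from 5 T-ALL lines (acute lymphoblastic leukaemia of T cells, of thymic origin in mice), each sequenced once as a PBS-treated parental culture, and from 11 derivatives resistant to 1 of 5 drugs. Lines 2883, 2696, 2641 and 2869 carry the Mcm2cre/cre genotype, a hypomorph of the replication helicase subunit Mcm2, in parental cultures and derivatives alike; line 7298 carries SCL/LMO1 transgenes and no labelled Mcm2 allele. Cytarabine derivatives were made from 7298, 2883 and 2869, vincristine derivatives from 2883, 2696 and 2869, etoposide derivatives from 2883 and 2696, prednisone derivatives from 2883 and 2641, and a methotrexate derivative from 2883. Every culture is 1 library, the labels name no batch, and no source used here gives the doses, the days of selection or whether a derivative is 1 clone.

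The libraries held 12142000 to 13498000 reads in the 5 parental cultures and 14066000 to 18956000 in the 11 derivatives, so depth separated these states completely; its part in the results was not tested. Levels are given as CPM, read counts scaled to the depth of the library. Mcm2 stood at 320 and 446 CPM in line 7298 and between 54.0 and 187 CPM in the 14 Mcm2cre/cre libraries. The 12 T lymphoblast markers all had a row, with Cd3e at 148 to 894 CPM, Lck at 442 to 998 and Thy1 at 386 to 1244 over the 16 libraries, while Cd4 was at 0 in 3 of them. Their summed level was 3239 to 6738 CPM in parental cultures and 3411 to 6453 in derivatives. Of other cell types, the 3 B cell and 3 erythroid markers were not analysed here. The myeloid list was represented by Itgam alone (2.74 to 33.1 CPM), and that of stroma, endothelium and epithelium by Pecam1 (25.5 to 220 CPM) and Pdgfrb (0.122 to 433 CPM).

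The sequences upstream of the genes that the cytarabine results turn on are shown first, because Dck and Dctd are the 2 members that reached 0 reads and because Rrm1 and Rrm2 encode partner subunits whose levels differed in different ways. They are RefSeq sequences of the mouse build GRCm38.p6, read 5′ to 3′ on the plus strand up to the base before the transcribed region, and capitals mark a CCAAT box on either strand. The Dck stretch lies at chr5:88764763-88764995, those of Dctd at chr8:48109708-48109957, of Rrm1 at chr7:102441445-102441694 and of Rrm2 at chr12:24708004-24708240. Dctd has 3 annotated starts, and the one shown has the longest clear stretch among those with a CCAAT box. The stretch at chr8:48098842-48099091, directly before the gene start given below, has no CCAAT box and is not shown.
Dck: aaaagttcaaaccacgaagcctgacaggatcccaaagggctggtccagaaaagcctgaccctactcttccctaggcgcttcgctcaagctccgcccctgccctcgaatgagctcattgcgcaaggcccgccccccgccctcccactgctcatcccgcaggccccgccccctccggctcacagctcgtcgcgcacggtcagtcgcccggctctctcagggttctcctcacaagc
Dctd: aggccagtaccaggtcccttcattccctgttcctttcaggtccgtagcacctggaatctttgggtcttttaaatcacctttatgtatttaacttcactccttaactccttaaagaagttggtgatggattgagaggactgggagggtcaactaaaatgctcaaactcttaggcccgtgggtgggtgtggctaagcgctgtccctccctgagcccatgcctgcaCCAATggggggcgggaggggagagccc
Rrm1: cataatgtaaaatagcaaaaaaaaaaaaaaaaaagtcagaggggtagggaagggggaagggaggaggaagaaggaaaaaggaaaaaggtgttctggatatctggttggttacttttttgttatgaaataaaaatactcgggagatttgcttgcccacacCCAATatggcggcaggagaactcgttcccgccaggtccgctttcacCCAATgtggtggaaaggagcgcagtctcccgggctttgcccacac
Rrm2: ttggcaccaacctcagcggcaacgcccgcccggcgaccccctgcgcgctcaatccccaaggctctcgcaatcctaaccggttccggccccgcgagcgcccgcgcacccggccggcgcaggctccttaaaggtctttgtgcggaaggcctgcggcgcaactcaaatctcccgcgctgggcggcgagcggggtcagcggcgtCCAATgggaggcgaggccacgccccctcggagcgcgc
All 10 members matched a RefSeq promoter, with 25 starts between them, each taken as 250 bases before to 50 after the start. A CCAAT box was found in 7 of 25 promoters, from 6 of 10 members, against 37.4% of all 32851 promoters. The E2F-type letters TTTCCCGC, TTTCGCGC, TTTGCCGC and TTTGGCGC, searched on both strands, were in 0 of the 25, against 2.3% of all promoters. These are matches of letters in a window and no measurement of binding.

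In parental cultures the members differed in level by more than an order of magnitude. On an approximate scale between genes, CPM per kb of all annotated exons, the medians over the 5 parental libraries ran from Dut (102) through Rrm2 (83.8), Rrm1 (52.9), Slc29a1 (51.9), Dtymk (40.95), Cmpk1 (35.2) and Dck (30.9) to Tk1 (15.9), Nt5c2 (8.23) and Dctd (6.82). The order depends on exon lengths that join every annotated transcript, such as 11012 bases for Rrm1 and 5198 for Tk1. How reads were counted is not known. The ranges of neighbours in this order overlapped except between Dck and Tk1 and between Tk1 and Nt5c2. On this scale the deoxycytidine kinase was above the thymidine kinase in all 5 parental lines, at 27.3 to 42.8 against 9.57 to 27.3 CPM per kb, ranges that all but touch. The order under another choice of transcripts was not tested. The CPM values that follow compare libraries within a gene, not genes with each other.

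**Figure D1:**
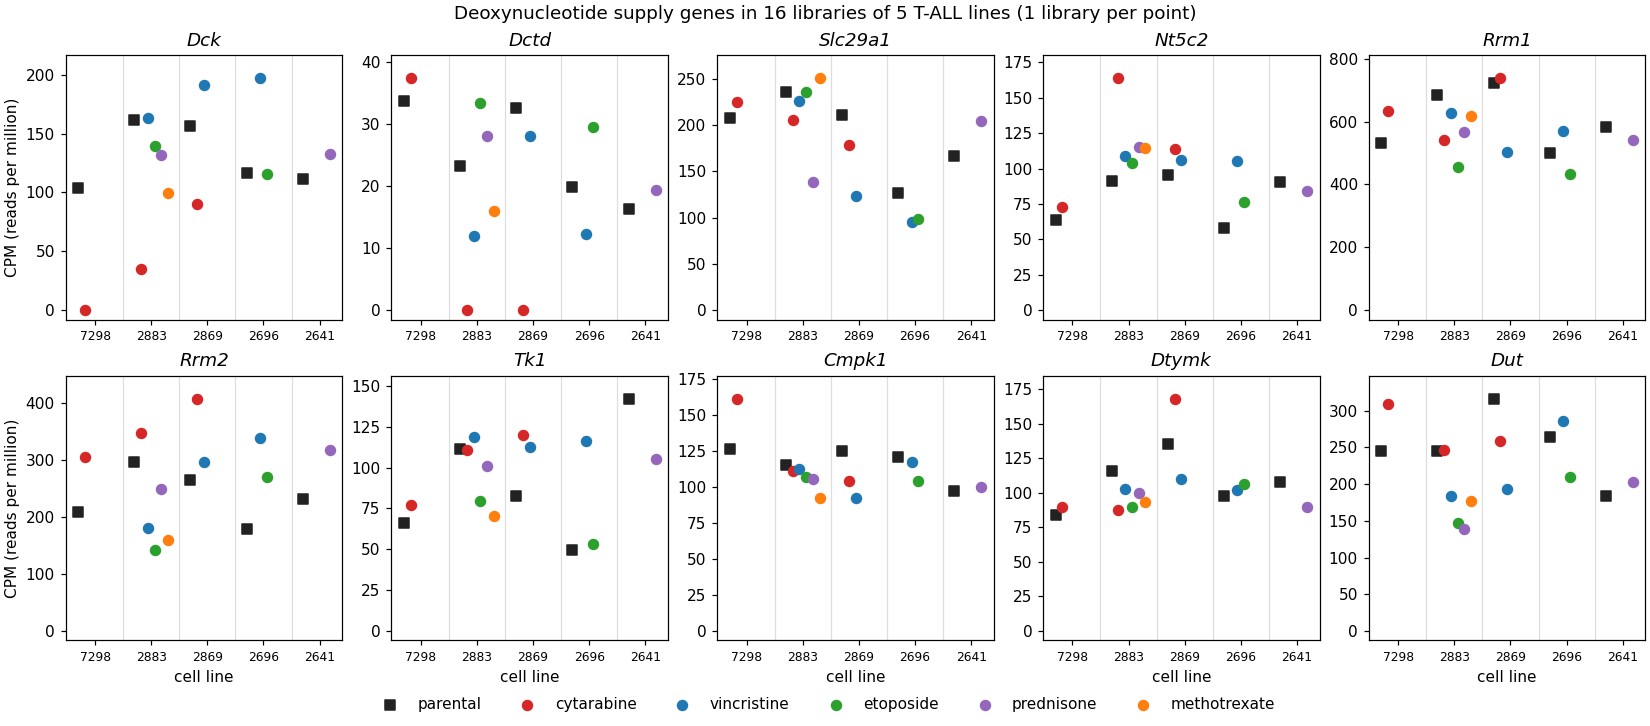
CPM (vertical axis, linear, from 0) of each of the 10 genes in every library, grouped by cell line on the horizontal axis; each point is 1 library, squares are parental cultures and coloured circles resistant derivatives. Dck is at 0 in the cytarabine derivative of 7298, and Dctd is at 0 in the cytarabine derivatives of 2883 and 2869.

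Dck, the kinase that activates cytarabine (ENSMUSG00000029366, chromosome 5, 88764996 to 88783281, plus strand, mm10), was at 103 CPM in parental 7298, 162 in 2883, 156 in 2869, 117 in 2696 and 111 in 2641. In the cytarabine derivatives it was at 0 in line 7298, 34.9 CPM in line 2883 and 90.3 CPM in line 2869. Each of these 3 values lies below every other library in the series: the derivatives of other drugs were at 99.4 CPM (methotrexate, 2883) to 197 CPM (vincristine, 2696). The cytarabine group and the parental group therefore do not overlap, although the methotrexate derivative of 2883 was not far above cytarabine-resistant 2869. How many of all genes separated these groups in this way was not counted. In bulk RNA, fewer cells that express a gene and less RNA per cell cannot be told apart.

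Against its own parental library, Dck had 0 of 1304 reads left in 7298, which is at least 609-fold lower when 3 reads are taken as the limit that a count of 0 allows. The ratio was 0.216 in 2883 (95% interval 0.197 to 0.237) and 0.578 in 2869 (0.541 to 0.618). The interval lay below 1 in 3 of 3 cytarabine derivatives, as it did for 7.38% of the 7017 genes with at least 200 reads in all 5 parental cultures. The intervals cover counting error only, and a single culture stands behind each value. In the limma model, with 1 term per line and 1 per drug, Dck had a log2 fold change of -1.61 ± 0.31 on log2(FPKM + 1) (SE, n = 3 derivatives, adjusted p = 0.404 over 9309 genes). Its p was the fifth smallest of all genes on that scale. No gene was called: 0 of 9309 (0%) passed limma's adjusted threshold, while 1037 (11.1%) had an unadjusted p below 0.05. Against the mean of the other 4 drugs the difference was -1.49 ± 0.32 (adjusted p = 0.502); in that contrast 2 of 9309 genes were called (0.0215%), neither of them a member. On log2(CPM + 1) Dck was at -2.98 ± 0.83 against parental (limma adjusted p = 0.494), and its p ranked only 133 among 13261 genes. With the derivative of 7298 at 0 reads, the size of the estimate depends on the scale and the pseudocount. Across the alternatives the adjusted p of Dck against parental ran from 0.207 to 0.868.

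In the 8 derivatives of other drugs Dck did not follow a common direction. Vincristine derivatives were at 163 CPM in 2883, 191 in 2869 and 197 in 2696, ratios of 1.01 (0.949 to 1.07), 1.22 (1.16 to 1.29) and 1.69 (1.59 to 1.80). The methotrexate derivative was at 0.614 (0.573 to 0.658), close to the 0.578 of cytarabine-resistant 2869. Prednisone derivatives were at 0.815 (0.767 to 0.866) in 2883 and 1.20 (1.12 to 1.28) in 2641, and etoposide derivatives at 0.862 (0.809 to 0.918) and 0.994 (0.929 to 1.06) in 2883 and 2696.

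Dck was not alone at its locus in cytarabine-resistant 7298. Mob1b, a regulator of Hippo pathway kinases whose annotated end is 775 bases before the start of Dck, was listed at 0 from 876 reads (at least 409-fold lower). Grsf1, which encodes an RNA-binding protein of mitochondria, was listed at 0 from 1375 reads (at least 642-fold lower). From the start of Grsf1 to the end of Dck these 3 genes span 123834 bases. On the near side, Rufy3 went from 207 to 68 reads (ratio 0.234, 0.176 to 0.310) and Utp3 from 1115 to 966 (0.618, 0.567 to 0.674). On the far side, Slc4a4, a bicarbonate transporter, went from 7 to 273 reads (27.8-fold higher, 13.3 to 69.9). The end of Rufy3 and the start of Slc4a4 are 235093 bases apart, and no gene between them other than Grsf1, Mob1b and Dck was at 1 CPM or more in 2 libraries.

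The other cytarabine derivatives did not share this block. In 2883, where Dck was at 0.216, Mob1b was at 0.817 (0.750 to 0.890), Grsf1 at 0.554 (0.512 to 0.599), Rufy3 at 0.694 (0.595 to 0.809) and Utp3 at 0.763 (0.705 to 0.826). In 2869, where Dck was at 0.578, Mob1b was at 0.584 (0.522 to 0.653), a ratio within counting error of that of Dck, while Grsf1 was at 0.815 (0.754 to 0.880) and Rufy3 at 1.18 (0.995 to 1.39). In the 8 derivatives of other drugs Grsf1 was between 0.789 and 1.49 and Mob1b between 0.666 and 1.40. Dck thus had a lower ratio than each of these neighbours in 2883 by a margin beyond counting error, and stood level with Mob1b in 2869. DNA copy number was not measured, and whether a listed 0 is an absent transcript or a failed estimate was not tested.

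**Figure D2:**
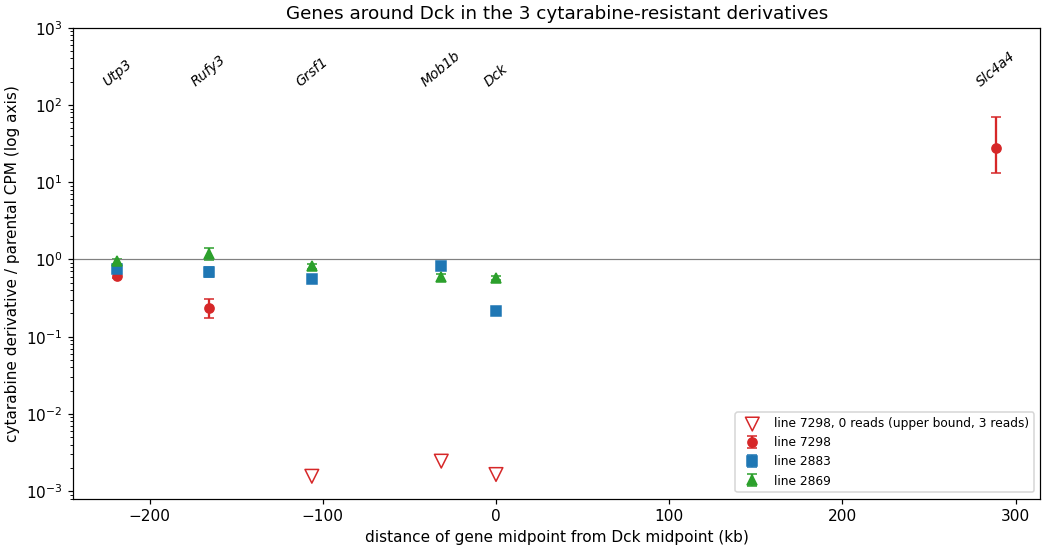
Ratio of CPM in each cytarabine derivative to its parental library (vertical log axis) for 6 genes at their distance from Dck in kb (horizontal axis); bars are 95% counting intervals and open triangles are upper bounds for genes at 0 reads. In line 7298 Grsf1, Mob1b and Dck are at 0 reads, whereas in lines 2883 and 2869 the same genes lie between 0.216 and 0.817 of the parental level.

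Dctd, the dCMP deaminase (ENSMUSG00000031562, chromosome 8, 48099092 to 48153233, plus strand, mm10), was at 0 in the cytarabine derivatives in which Dck was not. Its parental levels were 33.8 CPM in 7298, 23.2 in 2883, 32.6 in 2869, 19.9 in 2696 and 16.3 in 2641. In the cytarabine derivatives it was at 37.5 CPM in 7298, the highest of all 16 libraries, and at 0 in both 2883 and 2869. The 2 derivatives that still had Dck reads were therefore those with no Dctd reads, and the derivative without Dck reads kept Dctd. The counts behind this were 282 reads against 0 in 2883 (at least 133-fold lower), 440 against 0 in 2869 (at least 184-fold lower) and 426 against 662 in 7298 (ratio 1.11, 0.980 to 1.26).

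In derivatives of other drugs Dctd was never at 0. Etoposide derivatives were at 1.44 (1.24 to 1.68) in 2883 and 1.49 (1.28 to 1.74) in 2696, and prednisone derivatives at 1.21 (1.04 to 1.41) and 1.19 (1.00 to 1.41). Vincristine derivatives were at 0.516 (0.425 to 0.625) in 2883, 0.616 (0.510 to 0.743) in 2696 and 0.863 (0.757 to 0.984) in 2869, and the methotrexate derivative at 0.692 (0.578 to 0.827). The interval lay below 1 in 3 of 3 vincristine derivatives, as for 10.3% of the 7017 genes, and above 1 in 2 of 2 etoposide derivatives, as for 12.9%.

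Few genes with at least 200 parental reads were at 0 in a derivative. It was seen for 4 of 8157 genes in cytarabine-resistant 7298 (0.049%), 13 of 8090 in 2883 (0.161%) and 8 of 8097 in 2869 (0.0988%), and for 3 to 19 genes in each of the other 8 derivatives, none of them a member. Dctd was the single gene shared by the lists of 2883 and 2869, 7.7% of the first and 12.5% of the second, and the list of 7298 shared 0 genes with either. Of 4427 genes with at least 500 reads in all 5 parental cultures, 9 were at 0 in a derivative, each in 1 derivative; beside Dck, Grsf1 and Mob1b they were Ctsz, Eid1, Mbd1, Prps1, Slc45a3 and Xiap. Prps1, an enzyme that makes the sugar phosphate for nucleotide synthesis, and the apoptosis inhibitor Xiap are widely expressed, and a listed 0 is given here as the table has it.

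The genes that could be read around Dctd all lay before it, and further from it than Mob1b and Grsf1 from Dck. They cannot show whether a stretch as short as that at Dck changed with Dctd. Within 500 kb, Ing2, 423535 bases away, was at 0.762, 0.960 and 1.25 of the parental level in cytarabine-resistant 7298, 2883 and 2869. Cdkn2aip, 385159 bases away, was at 0.851, 0.758 and 1.14. Wwc2, 108167 bases away, went from 117 reads to 0 in 2883 (at least 55.2-fold lower) but was also at 0 in the vincristine derivative of 2883 and in parental 2869.

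**Figure D3:**
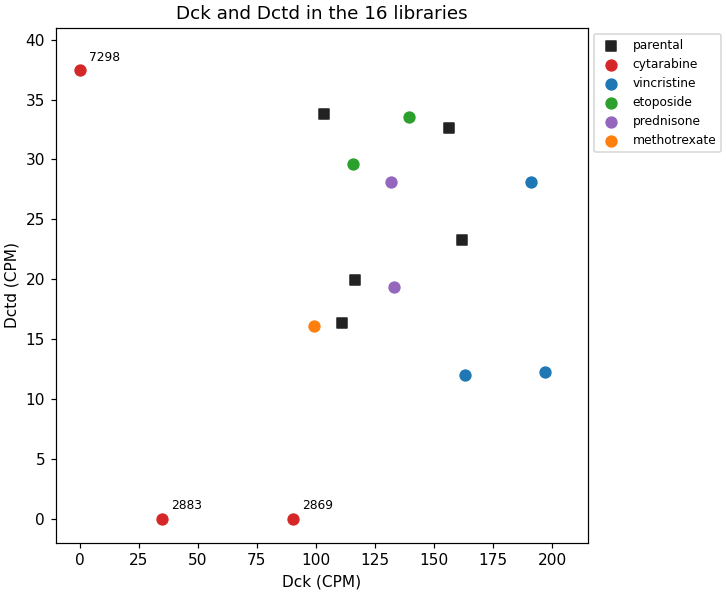
Dck (horizontal axis, CPM) against Dctd (vertical axis, CPM), 1 point per library, squares for parental cultures and circles for derivatives coloured by drug. The cytarabine derivative of 7298 lies at 0 for Dck and 37.5 for Dctd, and those of 2883 and 2869 lie at 0 for Dctd with Dck at 34.9 and 90.3.

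Dctd and Nt5c2 are long genes whose FPKM fell under the filter of the main test, and all 10 members were therefore tested on log2(CPM + 1) as well, over 13261 genes. On that scale limma gave Dctd -3.35 ± 0.78 (SE, n = 3; adjusted p = 0.494) against parental and -3.76 ± 0.80 (adjusted p = 0.556) against the other 4 drugs, and called 0 genes (0%), while 1249 (9.42%) had an unadjusted p below 0.05. Because 2 of the 3 derivatives are at 0, these values depend on the pseudocount and are no bound. With line 7298 set aside, a step chosen after the data were seen, Dctd was at -4.85 and limma called it with an adjusted p of 0.00100 without the derivative and 0.000983 without the parental library of 7298. It was the single gene called against parental, 1 of 13208 (0.00757%) and 1 of 13201 (0.00758%) in these fits. Against the other drugs Dctd was at -4.78 in the same fits, with limma adjusted p of 0.000647 and 0.000635, and was 1 of 2 genes called (0.0151% and 0.0152%). These calls rest on leaving out a library of the line whose cytarabine derivative had Dctd reads. Over the other alternatives the limma adjusted p of Dctd was 0.444 to 0.954 against parental and 0.362 to 0.969 against the other drugs. Fitted values of Dctd for other drugs share the line terms with the libraries at 0: the etoposide estimate was 1.00 ± 0.92, larger than the ratios of 1.44 and 1.49 imply.

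Nt5c2, the cytosolic nucleotidase that dephosphorylates nucleoside monophosphates (chromosome 19), was at 63.8 CPM in parental 7298, 91.0 in 2883, 95.6 in 2869, 58.1 in 2696 and 90.9 in 2641. In the cytarabine derivatives it was at 72.8, 164 and 114 CPM in 7298, 2883 and 2869, with 164 the highest of all 16 libraries. The interval of its ratio lay above 1 in 10 of 11 derivatives, a count that 1.23% of the 7017 genes reached; the exception was prednisone-resistant 2641 (0.923, 0.856 to 0.995). The ratio was 1.80 in cytarabine-resistant 2883 (1.68 to 1.93) and 1.81 in vincristine-resistant 2696 (1.66 to 1.97), and 1.11 to 1.31 in the other 8. Over all resistant libraries limma gave 0.29 ± 0.13 (SE, n = 11; adjusted p = 0.599) and for cytarabine 0.48 ± 0.18 (adjusted p = 0.507), so it was not called. The parental library was the shallower of every pair, and depth and resistance cannot be told apart.

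Slc29a1, the equilibrative transporter through which cytarabine enters (chromosome 17), was at 208, 236 and 212 CPM in parental 7298, 2883 and 2869, and at 225, 206 and 179 CPM in their cytarabine derivatives. The groups overlap, the ratios were 1.08 (1.03 to 1.14), 0.873 (0.831 to 0.918) and 0.845 (0.803 to 0.890), and the limma estimate was -0.04 ± 0.21 (adjusted p = 0.962). Its lowest ratios were found with other drugs, 0.583 in vincristine-resistant 2869 (0.551 to 0.617) and 0.586 in prednisone-resistant 2883 (0.555 to 0.619). Prednisone-resistant 2641 had the highest, 1.23 (1.16 to 1.29).

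The ribonucleotide reductase subunits differed from each other. Rrm2, the small subunit made in S phase, was at 209, 296 and 264 CPM in parental 7298, 2883 and 2869 and at 305, 347 and 408 CPM in their cytarabine derivatives. These 3 values lie above all 5 parental libraries, whose highest was 296, although vincristine-resistant 2696 at 338 and prednisone-resistant 2641 at 318 CPM overlap them. Genes whose cytarabine values all lie above the parental ones were not counted. The ratios were 1.46 (1.39 to 1.53), 1.17 (1.12 to 1.22) and 1.54 (1.48 to 1.61); 9.69% of genes had intervals above 1 in all 3. Limma gave Rrm2 0.65 ± 0.26 against parental (adjusted p = 0.433) and 0.68 ± 0.27 against the other drugs (adjusted p = 0.597).

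In line 2883 the drugs split Rrm2 by direction. Its cytarabine derivative was higher than parental, while the etoposide derivative was at 0.480 (0.455 to 0.507), methotrexate at 0.540 (0.512 to 0.570), vincristine at 0.613 (0.583 to 0.645) and prednisone at 0.844 (0.808 to 0.883). Outside that line all 6 ratios were above 1, from 1.13 in vincristine-resistant 2869 to 1.88 in vincristine-resistant 2696. The etoposide derivatives thus went opposite ways, 0.480 in 2883 and 1.51 in 2696, and with 1 culture each the difference between lines was not tested.

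Rrm1, the large subunit, was at 532, 684 and 724 CPM in parental 7298, 2883 and 2869 and at 634, 542 and 738 CPM in their cytarabine derivatives. The cytarabine ratios were 1.19 (1.16 to 1.23), 0.792 (0.769 to 0.816) and 1.0199 (0.993 to 1.05), with a limma estimate of 0.04 ± 0.17 (adjusted p = 0.943). Over all drugs the interval lay below 1 in 8 of 11 derivatives, and 12.2% of genes had that count or more. The lowest were etoposide-resistant 2883 at 0.664 (0.643 to 0.686) and vincristine-resistant 2869 at 0.695 (0.675 to 0.715). All 5 derivatives of 2883 were below their parental library, but these 5 ratios share that 1 library and are not independent.

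Tk1, the cytosolic thymidine kinase, ranged from 49.8 CPM in parental 2696 to 142 in parental 2641. Its largest ratio was in vincristine-resistant 2696, which went from 49.8 to 116 CPM (2.33, 2.13 to 2.55). With 1.36 (1.26 to 1.46) in 2869 and 1.07 (0.994 to 1.15) in 2883, limma gave vincristine 0.46 ± 0.19 (SE, n = 3; adjusted p = 0.324). In that contrast 0 of 9309 genes were called (0%), and 1289 (13.8%) had an unadjusted p below 0.05. The 3 vincristine derivatives ended at 113 to 119 CPM from parental values of 49.8 to 111, so the derivatives were closer to each other than their parental cultures were. The lowest ratios were in the methotrexate derivative (0.633, 0.582 to 0.687) and in etoposide-resistant 2883 (0.715, 0.660 to 0.774).

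Dut, which removes dUTP before it can be built into DNA, was at 184 to 316 CPM in parental cultures and at 138 to 309 CPM in derivatives. Its ratio was lowest in prednisone-resistant 2883 (0.563, 0.533 to 0.594), etoposide-resistant 2883 (0.597, 0.564 to 0.631) and vincristine-resistant 2869 (0.611, 0.583 to 0.639). The interval lay below 1 in 7 of 11 derivatives, a count that 20.3% of genes reached or passed. In the cytarabine derivatives Dut was at 1.26 (1.21 to 1.32) in 7298, 1.01 (0.959 to 1.05) in 2883 and 0.820 (0.786 to 0.856) in 2869. Against the other drugs limma gave 0.48 ± 0.20 (adjusted p = 0.598). For etoposide the estimate was -0.49 ± 0.23 (adjusted p = 0.563).

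Dtymk, which makes dTDP, and Cmpk1, which phosphorylates CMP, UMP and the monophosphates of deoxycytidine analogues, varied least. Dtymk was at 83.7 to 136 CPM in parental cultures, and its ratios ran from 0.755 (0.701 to 0.812) in cytarabine-resistant 2883 to 1.24 (1.17 to 1.32) in cytarabine-resistant 2869, so the cytarabine derivatives held both ends. All 5 derivatives of line 2883 were below parental for Dtymk, at 0.755 to 0.890, again against 1 shared parental library. Cmpk1 was at 97.0 to 126 CPM in parental cultures, with its highest ratio, 1.28 (1.20 to 1.36), in cytarabine-resistant 7298, and its lowest, 0.736 (0.687 to 0.789), in vincristine-resistant 2869. The limma estimates for cytarabine were 0.03 ± 0.16 for Dtymk and 0.03 ± 0.12 for Cmpk1 (adjusted p = 0.958 and 0.943).

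**Figure D4:**
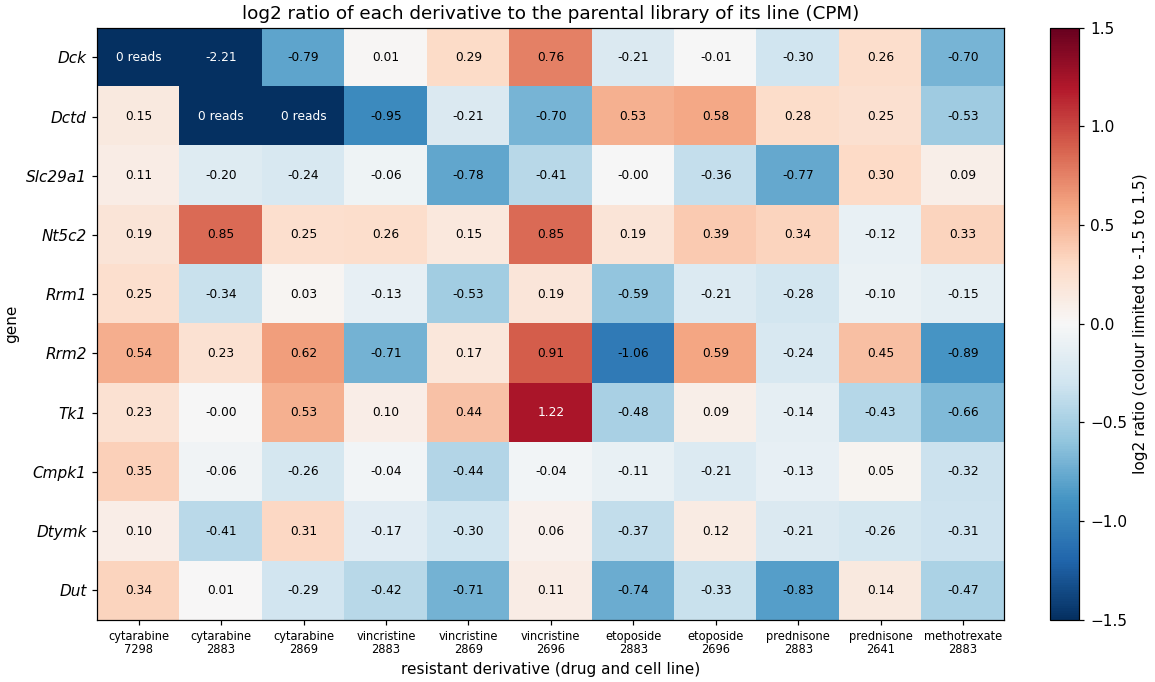
log2 ratio of each derivative (columns) to the parental library of its line for each gene (rows); blue is lower and red higher, colours stop at 1.5 on either side, and genes at 0 reads are marked. Dck and Dctd are at 0 reads in different cytarabine derivatives, Nt5c2 is above 0 in 10 of 11 columns, and Rrm2 is below 0 in 4 of the 5 columns of line 2883. Columns of 1 line share 1 parental library.

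Counting all members and derivatives, 93 of 110 ratios had an interval that left out 1, beside 73.8% of all ratios of the 7017 genes. At this depth counting error is small against the differences between cultures, and an interval that leaves out 1 does not separate the drug from the culture. In the tests that take the spread between cultures into account, limma called 0 of 8 members on log2(FPKM + 1) and 0 of 10 on log2(CPM + 1) with each of the 4 tested drugs, with all resistant libraries together and with cytarabine against the other drugs. The share of all genes called was 0.0215% (2 genes) for prednisone and 0% for vincristine, etoposide and all resistant libraries on the former scale. Before adjustment, with p below 0.05, the members for cytarabine were Dck among the 5.22% of genes that were lower and Rrm2 among the 5.92% that were higher. For vincristine the member was Tk1, among 5.94% higher. Against the other drugs (8.22% of genes) they were Dck among 2.38% lower and Rrm2 and Dut among 5.83% higher. There were 0 for etoposide (827 genes, 8.88%), prednisone (853, 9.16%) and all resistant libraries (907, 9.74%). On log2(CPM + 1) Dctd and Nt5c2 joined Dck and Rrm2 for cytarabine, making 4 of 10 (9.42% of genes). Dctd joined the members against the other drugs, also 4 of 10 (8.17% of genes). Tk1 was again the member for vincristine (1727 genes, 13%), and there were 0 for etoposide (1151, 8.68%), prednisone (1122, 8.46%) and all resistant libraries (1105, 8.33%). In the etoposide contrast the 8 members tested on log2(FPKM + 1) were all lower, with a median difference of -0.19 beside -0.03 over all genes, of which 5053 of 9309 were lower. On log2(CPM + 1), with all 10 tested, 8 were lower and 2 higher, the latter being Dctd at 1.00 and Nt5c2 at 0.09. For prednisone 7 of 8 were lower on the former scale, with a median of -0.11 beside 0.00 and 4627 of 9309 genes lower, and 7 of 10 on the latter.

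**Figure D5:**
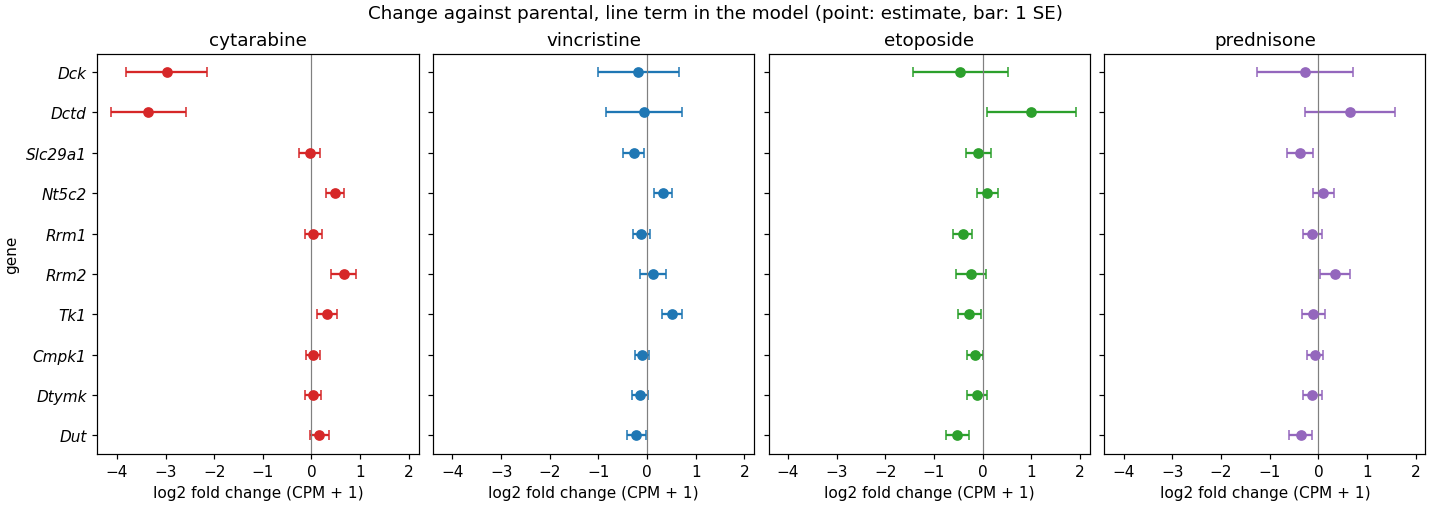
log2 fold change on log2(CPM + 1) of the 10 genes (rows) against parental in 4 panels, 1 per drug; points are limma estimates with a term per line and bars are 1 SE. Dck and Dctd stand at -2.98 and -3.35 for cytarabine with wide bars, and the other estimates lie between -0.52 and 1.00.

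Methotrexate resistance was represented by a single derivative of 2883 and has no test. Beside Dck at 0.614 and Dctd at 0.692, Rrm2 was at 0.540, Tk1 at 0.633 and Dut at 0.722 (0.684 to 0.762), while Nt5c2 was at 1.26 (1.16 to 1.36) and Slc29a1 at 1.06 (1.01 to 1.12). The interval lay below 1 for 8 of the 10 members and for 51.1% of all genes in this pair of libraries.

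The wider pathway was described from lists of further genes. Of 16 salvage, nucleotidase and catabolic genes with a row, 12 were tested; in cytarabine derivatives 3 were higher and 9 lower, 0 called, with a median of -0.09 beside 0.02 over all genes. Those with the smallest p were the purine salvage enzyme Hprt (-0.21 ± 0.11) and the nucleotidases Nt5c3 (-0.18 ± 0.10) and Nt5c3b (-0.28 ± 0.17), followed by Pnp (-0.16 ± 0.13). Hprt was at 0.835, 0.811 and 0.842 of parental in 7298, 2883 and 2869. Of 19 tested genes of new nucleotide synthesis 11 were higher and 8 lower, 0 called, median 0.03, with Paics, a purine synthesis enzyme, at -0.44 ± 0.25. The 3 tested transporters were all higher and not called, Abcc5 at 0.22 ± 0.11. Dguok, the mitochondrial relative of Dck, was singled out after its values were seen: it was at 0.612 (0.502 to 0.745) in 7298, 1.502 (1.23 to 1.84) in 2883 and 1.41 (1.22 to 1.64) in 2869.

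With vincristine, etoposide and prednisone 0 genes of these 3 lists were called against parental as well. For vincristine 14 of 19 genes of new synthesis were higher, with a median of 0.12 beside -0.02 over all genes, and the 4 with the smallest p were the guanylate kinase Guk1 (0.53 ± 0.12), the nucleoside diphosphate kinase Nme2 (0.53 ± 0.16), the thymidylate synthase Tyms (0.99 ± 0.36) and Cad (1.18 ± 0.50), which starts pyrimidine synthesis (limma adjusted p = 0.159 to 0.342). Salvage genes were 6 higher and 6 lower for vincristine, 3 and 9 for etoposide with the nucleotidase Nt5c at -0.66 ± 0.28, and 2 and 10 for prednisone, where the uridine-cytidine kinase Uck2 stood out among the higher ones at 0.94 ± 0.25 (limma adjusted p = 0.489). Of all 9309 genes tested, 4909 were lower for vincristine, 5053 for etoposide and 4627 for prednisone.

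Genes of S phase and E2F targets were counted beside Rrm2, since ribonucleotide reductase is made with them. In cytarabine derivatives 18 of 23 were higher, beside 52.6% of all genes, with a median of 0.26 beside 0.02. None of the 23 was called (0 by limma), and 6 had an unadjusted p below 0.05, all of them among the 5.92% of genes that were higher at that level. E2f8, a repressor of the E2F family, was at 0.84 ± 0.15, Mcm4 at 0.64 ± 0.26, E2f2 at 0.61 ± 0.23 and the proliferation marker Mki67 at 0.47 ± 0.16 (adjusted p = 0.404 to 0.436). E2f8 was at 1.52, 2.22 and 1.80 of parental in 7298, 2883 and 2869, whereas Mcm4 was at 2.56, 0.922 and 1.24, with the highest ratio in line 7298. Against the other 4 drugs 21 of 23 were higher, beside 57.7% of all genes, with a median of 0.27 beside 0.04 and 0 called. That contrast also reflects the drugs it is set against. Methotrexate, a single library with the weight of a whole drug in their mean, had 4 higher and 19 lower against parental. Vincristine had 12 of 23 higher and prednisone 13. The etoposide contrast had 9 of 23 higher and a median of -0.10, with the primase subunit Prim1 at -0.65 ± 0.21 and the cyclin Ccne2 at -0.65 ± 0.23 (adjusted p = 0.531 for both). The part of these genes in the levels of Rrm2, Tk1 and Dut was not tested.

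Likeness was measured as the Pearson correlation, over the 11 derivatives, of log2 ratios to parental, among 11485 genes; the derivatives share parental libraries, and the values are descriptions. The genes most like Dck were its neighbours Grsf1 (r = 0.97, Spearman rho 0.96) and Mob1b (0.96, 0.81), followed by Zc2hc1a, Lmo1 and Fam135a (0.93 each). The last 3 had rho of 0.26 to 0.28. Lmo1 is named in the transgenes of line 7298. It was at 222 and 270 CPM there and at 0.00528 to 0.00824 CPM in the 14 Mcm2cre/cre libraries, so its r rests on the derivative of 7298. Without the cytarabine derivative of 7298, none of these 5 genes, Grsf1 and Mob1b included, was among the 5 nearest. Then the nearest were Mthfd1 (0.95), an enzyme of folate metabolism, then Dbt, Metap1, Ptma and Mrpl32 (0.91 to 0.94). The genes most like Dctd were Psenen (0.87), Spsb4, Vapa, Tmem238 and Prmt6. Dck and Dctd had r = 0.09 (rho 0.18) with each other over 11 derivatives and 0.71 over the 10 without cytarabine-resistant 7298, where rho was 0.30. Among the other members the closest pairs were Rrm1 with Dut (0.75), Cmpk1 with Dut (0.71), Rrm1 with Dtymk (0.71) and Rrm2 with Tk1 (0.70).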

How the data were processed

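Poly(A) RNA libraries of 16 cultures were sequenced. The deposited table holds FPKM of 13474 genes. Per the submitters' processing notes cutadapt, STAR, Partek and the mm10 build were used; no source here gives versions, the annotation or how reads were counted. In the deposited FPKM the gene length is the whole span with introns in 13474 of 13474 rows, and 0.1 read was added to each gene. CPM was computed as FPKM times length, and reads as CPM times the depth given by rows at 0. Within 0.05 of a whole read lay 70.5% to 75.7% of a library's values from 0.5 to 200 reads, too few for a count test. Levels per exon kb used GENCODE vM21, which gave the same span for 13080 of 13201 symbols found.

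Ratios of a derivative to the parental library of its line carry 95% exact (Clopper-Pearson) intervals; a ratio against 0 is a bound at 3 reads per library. The test was limma 3.58.1 (R 4.3.3; lmFit and eBayes with an intensity trend). It ran on log2(FPKM + 1) of the 9309 genes that reached 1 FPKM in 2 or more libraries, with 1 term per cell line and 1 per drug over all 16 libraries, or 1 term for resistance. P-values are two-sided, adjusted by Benjamini-Hochberg at 0.05, and measure the spread between single cultures. Fold changes on log2(value + 1) understate changes of low genes. The line pairs a culture with its parental library because the labels name it for both; each derivative correlated best with its own parental library in 11 of 11 cases (r = 0.91 to 0.98 across genes). The test was also run on simulated data, in which chosen genes were lowered alike in all cytarabine derivatives. That setting does not cover a gene at 0 reads in only some of them, and its outcome is not used here.

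All 10 members are named in every comparison, with up to 4 genes per pathway list by smallest p. Members and lists were chosen with earlier results of these data known. The analysis on log2(CPM + 1) was planned as an alternative; its repeats for Dctd and Nt5c2, the genes around Dctd, the counts of genes at 0 and likeness to Dctd were added after the data were seen. One gene of a pathway list is not reported here. Python 3.11.15 and SciPy 1.17.1 did the rest.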

Additional observations from a re-analysis of the deposited data

How the results depend on the processing

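Over 60 member values and 1262 alternative values, 1207 kept their direction and side of the threshold, 51 had the opposite sign and 4, all of Dctd, passed the threshold. Outside leave-one-out there were 7 changes of sign, none of them past the threshold. Without the replicate block (the cell line) Slc29a1 under cytarabine was at 0.12, and under prednisone Dck was at 0.044, Tk1 at 0.25 and Dctd at -0.051. Quantile normalization gave Cmpk1 under cytarabine -0.00919. Dck under vincristine was at -0.10 with a pseudocount of 0.1 FPKM and -0.18 on log2(CPM + 1), although its ratios were 1.01, 1.22 and 1.69. Its estimates for other drugs are fitted jointly with the cytarabine library of 7298 at 0 reads. The cause was not tested. Leaving out each library in turn changed signs within these ranges: for cytarabine Slc29a1 -0.12 to 0.084, Rrm1 -0.055 to 0.22, Cmpk1 -0.086 to 0.12 and Dtymk -0.14 to 0.24; for vincristine Dck -0.042 to 0.36, Rrm1 -0.22 to 0.089, Rrm2 -0.22 to 0.34, Dctd -0.59 to 0.27, Cmpk1 -0.12 to 0.016 and Dtymk -0.23 to 0.0073; for etoposide Slc29a1 -0.27 to 0.086, Nt5c2 -0.13 to 0.15, Rrm2 -0.66 to 0.20 and Dtymk -0.22 to 0.015; for prednisone Dck -0.20 to 0.22, Slc29a1 -0.81 to 0.27, Nt5c2 -0.11 to 0.26, Tk1 -0.39 to 0.12, Cmpk1 -0.11 to 0.036 and Dut -0.70 to 0.14; for all resistant libraries Cmpk1 -0.12 to 0.0050; and for cytarabine against the other drugs Slc29a1 -0.051 to 0.22 and Dtymk -0.0083 to 0.43. Over these alternatives Dck under cytarabine ran from -2.98 to -1.13 against parental. Dctd ran from -4.85 to -2.50 against parental and from -4.78 to -2.97 against the other drugs when a library was left out, called without either library of 7298. On unfiltered log2(FPKM + 1), which compresses its low FPKM, it was at -0.40 and -0.45.

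Counts of genes called by limma that differed from those in the report were these. Without the replicate block 3 were called for vincristine and 0 for prednisone. Prednisone had 1 without a filter and 0 on log2(CPM + 1). Cytarabine against the other drugs had 3 with median-of-ratios scaling, 13 without a filter, 4 with quantile normalization and 0 with a pseudocount of 0.1 FPKM or on log2(CPM + 1). Leaving out a library on log2(FPKM + 1) gave 0 to 9 for vincristine, 0 to 5 for etoposide, 0 to 4 for prednisone, 0 to 2 for all resistant libraries and 0 to 2 for cytarabine against the other drugs. On log2(CPM + 1) it gave 0 to 9 for vincristine, 0 to 33 for etoposide, 0 to 11 for prednisone, 0 to 1 for cytarabine, 0 to 2 for cytarabine against the other drugs and 0 for all resistant libraries, and Dctd was the 1 member called. Median-of-ratios scaling multiplied the ratios by 0.958 to 1.06, moved 7 of them beyond their interval and turned none.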
